A study of Rattus norvegicus with 6 samples.

Results

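Voltage-gated sodium and calcium channel genes were compared between brain tissue of sham-operated rats and brain tissue from rats that had had an intracerebral hemorrhage (ICH), bleeding within the brain. The genes were taken by name: every array probe whose RefSeq transcript belongs to a rat gene of the Scn family (Scn with a number and the letter a or b), or of the Cacn family with the letter a, b or g, was included. The gene table holds 40 such symbols. Probes were found for 38 of them, 48 probes in all, out of 30367 probes other than controls and 15443 named genes. No probe was matched to Cacna1d, an L-type pore subunit, or to Scn7a, an atypical sodium channel gene, and neither was analysed here.

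The sham group was 3 samples labelled control, and the ICH group was 3 samples that the labels call peripheral brain tissue and the study's title places around the hematoma, the pool of clotted blood. Each sample has the age label day 1, and whether this counts from birth or from the operation is not stated. Its total RNA was hybridised to 1 single-colour array. The question is how transcript levels differ in tissue beside a hematoma. The labels call the samples of a group biological replicates. The design text speaks of transfected replicates where the sample labels speak of hemorrhage, and the labels name no transfected agent. Strain, sex, how the hemorrhage was made and which brain region was taken are not given in the sources used here.

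A voltage-gated channel opens when the membrane depolarises. Sodium channels carry the rising phase of the action potential in axons and cell bodies, and calcium channels turn depolarisation into calcium entry that drives transmitter release, dendritic signalling and transcription. Each channel has a large pore subunit (the Scn genes ending in a, and the Cacna1 genes) and helper subunits. The sodium channel beta subunits are membrane proteins that tune gating and bind other cells, the calcium channel beta and alpha2delta subunits bring the pore to the membrane, and most gamma genes, although named for calcium channels, encode TARPs, which carry AMPA-type glutamate receptors to synapses.

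Between 81.8% and 85.4% of the 58717 spots on an array were well above background, 0 spots were saturated, and the 75th percentile of the signal ran from 5726 to 6676. Of the 48 channel probes, 42 were well above background on all 6 arrays and 45 passed the filter of at least 3 arrays. A gene was read from its brightest probe, which left 36 channel genes to test. Cacna1f, an L-type pore subunit best known from the retina, and Cacna2d4, an alpha2delta subunit also known from the retina, were not well above background on any array. Levels are given as log2 of the processed signal minus the 75th percentile of the array, so that a level of 0 is the brightness of that percentile. As probes differ in brightness, levels were compared between arrays and not between genes. In pieces of whole tissue, fewer cells of a type and less RNA per cell cannot be told apart.

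Of the 36 genes, 25 had a lower mean in ICH and 11 a higher one, or 69.4% lower beside 54.1% of all 22179 array rows tested; with arrays centred on spike-in controls the split turned to 11 lower and 25 higher. The median difference over the channel genes was −0.22 on the log2 scale, beside −0.039 over all rows. With spike-in centring the medians were 0.22 and 0.40 (channel genes and all rows), a shift that is the same for every row and leaves the gap of 0.18 between them as it was. With 1 array left out, the channel median minus that of all rows ran from −0.24 to −0.096. In limma's test with Benjamini-Hochberg adjustment over all rows, 0 of 36 channel genes passed an adjusted p of 0.05, as did 0 of all rows (0%). At an unadjusted p under 0.05 there were 9 channel genes (25.0%, beside 14.7% of all rows), of which 2 were higher in ICH (5.56%, beside 6.16%) and 7 lower (19.4%, beside 8.56%). Centred on spike-in controls, 10 channel genes were at that level, 8 of them higher and 2 lower. Over all 22179 rows, 5097 were higher and 178 lower at that level with this centring. The 3 ICH values lay below all 3 sham values for 10 genes (27.8%, beside 16.5% of all rows) and above them for 1 gene (2.78%, beside 11.0%). The differences below are therefore descriptions of these 6 arrays, and no channel gene is called as changed.

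**Figure D1:**
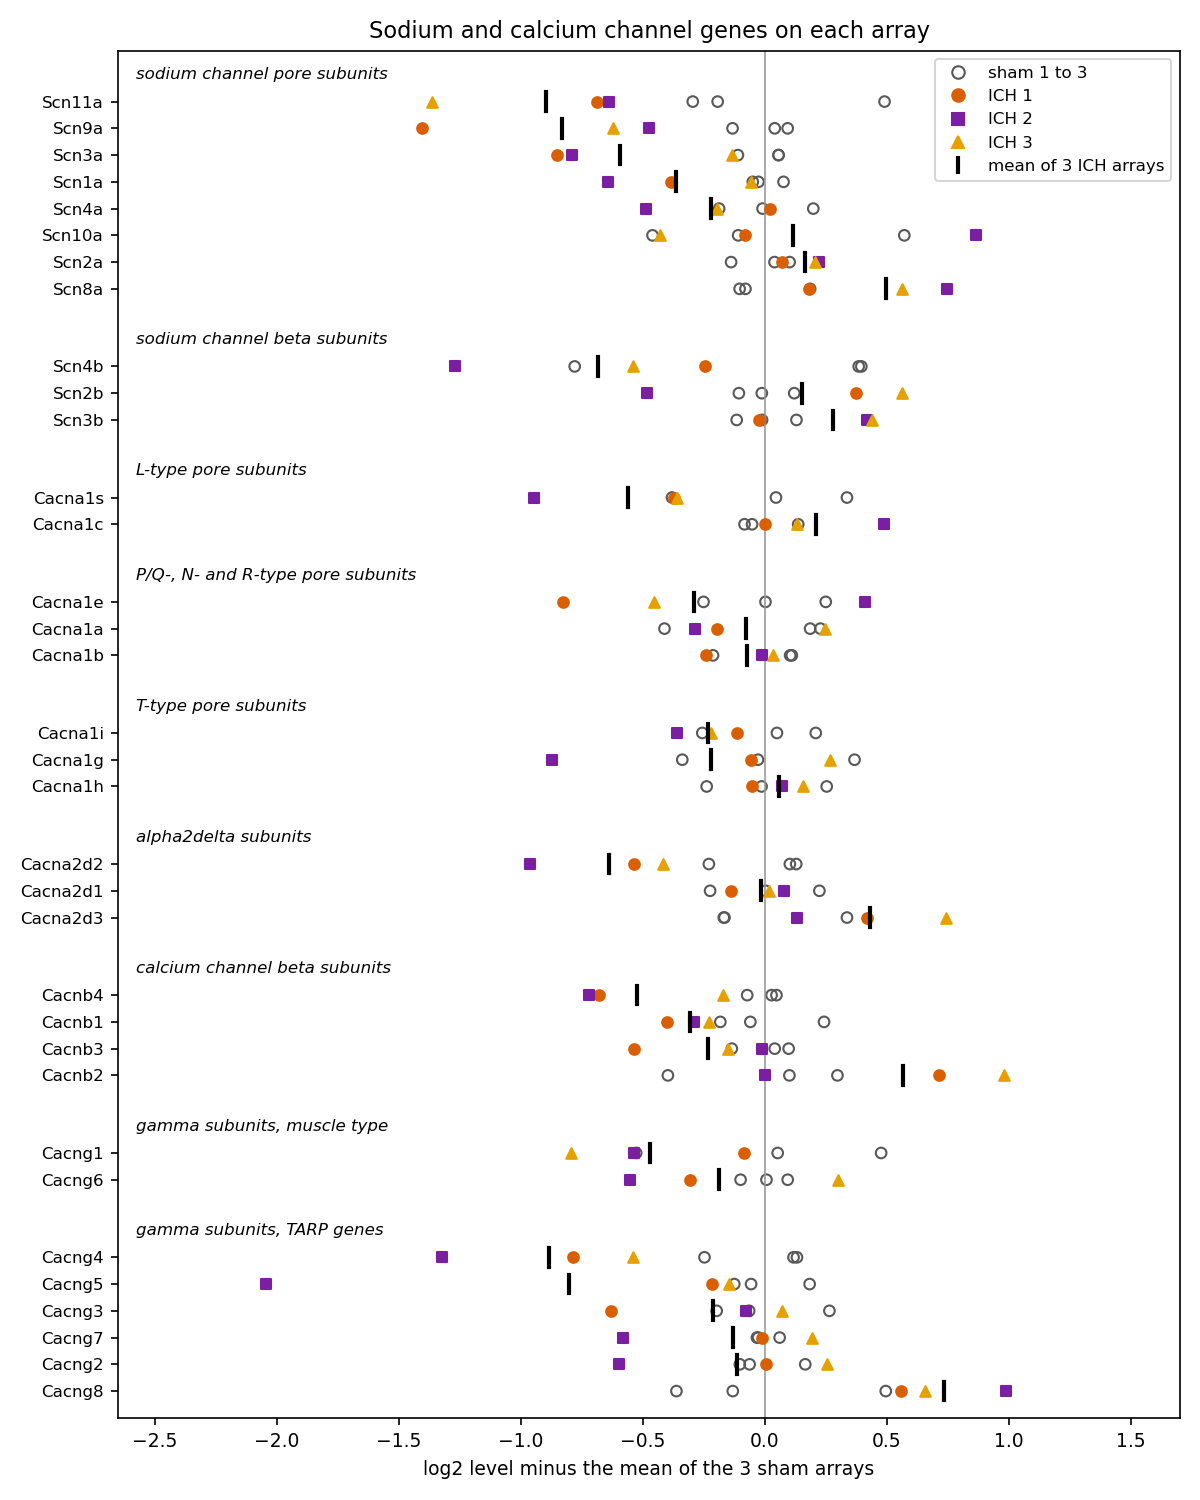
Level of 34 channel genes on each array, drawn as the log2 level minus the mean of the 3 sham arrays and grouped by role; open circles are sham arrays, filled symbols the 3 ICH arrays and the bar their mean. The 3 ICH symbols lie left of all open circles for 9 genes and right of them for Cacng8; the directions of 14 genes turn with spike-in centring.

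The pore subunits of the sodium channels had a median difference of −0.36 over 9 genes, beside −0.039 over all rows. Scn9a and Scn11a encode channels known from pain-sensing neurons. Scn9a read −1.45, −1.27 and −1.22 in sham and −2.72, −1.79 and −1.94 in ICH, with the lowest level in ICH 1. The difference was −0.83 ± 0.26 (SE, n = 3 arrays per group), a 1.78-fold lower mean (adjusted p = 0.302 by limma). It was −0.55 without ICH 1, and −0.40 with spike-in centring, where it was no longer at an unadjusted p under 0.05. Scn11a read −3.98, −4.77 and −4.67 in sham and −5.16, −5.11 and −5.84 in ICH, and the groups did not overlap. Its difference was −0.90 ± 0.30 (adjusted p = 0.304), and −0.46 with spike-in centring, again no longer at an unadjusted p under 0.05. Scn10a, the other channel known from these neurons, read −4.70, −5.73 and −5.38 in sham and −5.35, −4.41 and −5.70 in ICH, so that its groups overlapped and its highest value was ICH 2.

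Scn3a, Scn1a, Scn2a and Scn8a are the main pore genes of brain neurons. Scn3a is known for its expression in the developing brain. It read −0.29, −0.46 and −0.29 in sham and −1.20, −1.13 and −0.48 in ICH. ICH 1 and 2 stood clear of the sham arrays, while ICH 3 lay just below the lowest of them. The difference was −0.59 ± 0.22 (adjusted p = 0.323). Without ICH 3 it was −0.82, the widest of the values with 1 array left out, which ran from −0.82 to −0.46. With spike-in centring it was −0.16 and no longer at an unadjusted p under 0.05. Scn1a, known from fast-spiking inhibitory neurons, also lay lower on every ICH array, with ICH 3 nearest the sham arrays, at 1.67, 1.69 and 1.79 in sham and 1.33, 1.07 and 1.66 in ICH. Its difference of −0.36 ± 0.18 had an adjusted p of 0.389 and turned to 0.071 when arrays were centred on spike-in controls.

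Scn8a, the channel of mature axon initial segments and nodes of Ranvier, lay the other way. It read −4.86, −5.12 and −5.15 in sham and −4.86, −4.30 and −4.48 in ICH, where ICH 1 equalled the highest sham array to 2 decimals and the groups overlapped. The difference was 0.50 ± 0.19 (adjusted p = 0.329), and 0.93 with spike-in centring. It was 0.42 with arrays centred on their medians and 0.32 with another background correction (normexp). In both of these it was no longer at an unadjusted p under 0.05. Scn2a, a pore gene of excitatory neurons, differed by 0.16 ± 0.13, and Scn4a, the sodium channel of skeletal muscle, by −0.22 ± 0.19. The gap between Scn8a and Scn3a can be taken within each array and so does not depend on how arrays are centred. It was 0.13, 0.030 and −0.16 in sham and 1.03, 1.54 and 0.70 in ICH, a difference of 1.09 (two-sided exact permutation p = 0.10, the smallest that 3 against 3 arrays allow). The pair was chosen after the values were seen, as a gene with a higher mean and a gene with a lower one. This p is therefore no evidence of a difference.

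Scn3a, Scn2a, Scn1a, Scn9a and Scn7a follow each other on 1 chromosome in the RefSeq gene order, with 4 other protein-coding genes between Scn2a and Scn1a. Within this cluster Scn3a, Scn1a and Scn9a were lower in ICH, Scn1a turning with spike-in centring, and Scn2a was not. Promoter windows, from 250 bases before to 50 after the annotated start, were matched for 25 of the 38 channel genes (RefSeq, build GRCr8). The windows of Scn3a and Scn9a, which lay lower, and of Scn8a, which lay higher, are shown because these sodium pore genes differ both in direction and in base composition. The Scn3a window is chr3:70666149-70666448 on the minus strand, the Scn9a window chr3:71701328-71701627 on the minus strand and the Scn8a window chr7:133860977-133861276 on the plus strand. Capitals mark the GC box, GGGCGG or its reverse complement CCGCCC.
Scn3a: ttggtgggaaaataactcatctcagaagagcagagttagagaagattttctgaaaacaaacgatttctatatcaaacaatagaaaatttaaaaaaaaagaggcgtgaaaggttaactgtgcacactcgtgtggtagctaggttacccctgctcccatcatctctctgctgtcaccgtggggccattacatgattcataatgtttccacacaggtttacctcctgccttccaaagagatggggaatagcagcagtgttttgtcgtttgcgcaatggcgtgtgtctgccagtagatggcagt
Scn9a: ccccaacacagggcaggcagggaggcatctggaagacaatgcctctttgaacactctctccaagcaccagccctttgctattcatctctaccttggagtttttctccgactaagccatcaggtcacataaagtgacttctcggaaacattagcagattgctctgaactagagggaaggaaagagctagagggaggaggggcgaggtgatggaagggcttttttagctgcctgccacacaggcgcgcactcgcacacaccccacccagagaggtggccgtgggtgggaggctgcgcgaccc
Scn8a: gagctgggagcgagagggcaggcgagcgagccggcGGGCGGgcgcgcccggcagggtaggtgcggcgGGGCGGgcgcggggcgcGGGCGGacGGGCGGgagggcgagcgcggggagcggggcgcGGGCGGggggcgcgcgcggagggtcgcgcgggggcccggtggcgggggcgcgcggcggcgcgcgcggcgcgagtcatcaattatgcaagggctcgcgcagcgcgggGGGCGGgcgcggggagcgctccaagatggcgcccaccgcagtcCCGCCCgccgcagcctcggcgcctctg

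The Scn8a window held 7 GC boxes and 60 CG pairs, and 84.7% of its bases were G or C. The Scn3a window held 0 GC boxes and 7 CG pairs at 43.3% G or C, and the Scn9a window 0 GC boxes and 9 CG pairs at 56.0%. The median over all promoters was 51.7% G or C with 7 CG pairs, and over the 25 channel promoters 61.7% with 11 CG pairs. A GC box on either strand occurred in 12 of 25 channel promoters (48.0%), beside 33.1% of the 33469 promoters in the table. The TATA box letters TATAAA, on either strand, occurred in 2 of 25 (8%), beside 14.2%. The cAMP response element TGACGTCA and the E-box CACGTG occurred in 0 of 25, beside 1.83% and 6.42% of all promoters. The channel windows were counted once per gene, while the values for all promoters cover every window in the table without that limit. The 2 sets are thus not like for like. These letter counts are descriptions of the windows, and none of the motifs contains the letters of another. Of the 4 matched genes that were lower at an unadjusted p under 0.05, 1 had a GC box (Cacna2d2). Of the 2 matched higher ones, 1 did (Scn8a). Among those whose windows are not printed, Cacna2d2 (lower) held 77% G or C, Scn11a (lower) 48.3% and Cacng8 (higher) 61.7%. The printed windows were chosen after the values were seen, and a link between composition and direction was not tested.

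The sodium channel beta subunits had 0 of 4 genes at an unadjusted p under 0.05 in limma, beside 14.7% of all rows, too few genes to set the class apart. Scn4b, which gives fast-firing neurons their resurgent current and is abundant in the striatum, read 1.77, 1.78 and 0.61 in sham and 1.14, 0.12 and 0.85 in ICH. Its low sham array, sham 3, was lower than ICH 1 and ICH 3, and the difference was −0.68 ± 0.41 (adjusted p = 0.454). The markers of striatal projection neurons were also low in sham 3: their median deviation from the sham mean was 0.40, 0.45 and −0.85 in sham and −0.84, −1.48 and −1.29 in ICH. The part of the striatal markers in the Scn4b difference was not tested. Scn3b differed by 0.28 ± 0.18 and Scn2b by 0.15 ± 0.29. Scn2b and Scn4b are direct neighbours in the gene order.

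Of the 8 calcium channel pore subunits tested, 0 had an unadjusted p under 0.05 in limma, beside 14.7% of all rows. With so few genes this count does not set the class apart from all rows. Of the L-type genes, which couple activity to transcription, Cacna1s, the skeletal muscle form, read −4.21, −4.92 and −4.50 in sham and −4.92, −5.49 and −4.90 in ICH. ICH 1 and 3 lay within the sham range, and the difference was −0.56 ± 0.26 (adjusted p = 0.366). Cacna1c, the main brain and heart form, read −1.60, −1.41 and −1.63 in sham and −1.55, −1.06 and −1.41 in ICH, a difference of 0.21 ± 0.17. Its second probe lay the other way, at −4.20, −4.16 and −4.17 in sham and −4.55, −5.17 and −4.13 in ICH (difference −0.44 ± 0.27), so the probes gave no single direction for Cacna1c.

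The P/Q-, N- and R-type genes feed calcium to transmitter release. Cacna1e, the R-type gene, had the largest difference of them, −0.29 ± 0.34, which turned to 0.14 with spike-in centring. It read −1.52, −2.02 and −1.76 in sham and −2.59, −1.36 and −2.22 in ICH, where ICH 2 was the highest of all 6 arrays. Cacna1a (P/Q-type) differed by −0.078 ± 0.24 and Cacna1b (N-type) by −0.074 ± 0.16, and the second Cacna1b probe by 0.26 ± 0.16. Both directions turned under spike-in centring, to 0.36 for each gene.

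The T-type genes open near the resting potential and shape burst firing, as in thalamic neurons. Cacna1i read −1.80, −2.27 and −1.96 in sham and −2.12, −2.37 and −2.23 in ICH, a difference of −0.23 ± 0.17 that turned to 0.20 with spike-in centring. Cacna1h read 0.27, −0.002 and −0.23 in sham and −0.042, 0.081 and 0.17 in ICH, a difference of 0.057 ± 0.17 that turned to −0.019 when arrays were centred on their medians. Cacna1g differed by −0.22 ± 0.34, and by 0.21 with spike-in centring. All 3 T-type genes overlapped between the groups.

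Among the alpha2delta subunits, some of which bind gabapentin-type drugs, Cacna2d2 stood apart from its sham values. It read −3.48, −3.51 and −3.84 in sham and −4.15, −4.58 and −4.03 in ICH, with ICH 2 lowest. The groups did not overlap, and the difference was −0.64 ± 0.20 (adjusted p = 0.301). Spike-in centring reduced it to −0.20, no longer at an unadjusted p under 0.05. Cacna2d3 lay the other way in its mean, at −1.68, −1.18 and −1.68 in sham and −1.10, −1.38 and −0.77 in ICH, a difference of 0.43 ± 0.23 (adjusted p = 0.406). Its sham 2 value lay between ICH 1 and ICH 2. Cacna2d1 differed by −0.015 ± 0.16.

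Of the calcium channel beta subunits, which bind the pore from inside the cell, Cacnb4 alone had an unadjusted p under 0.05. It is abundant in cerebellum and thalamus, and its loss causes ataxia in mice. It read −0.33, −0.30 and −0.43 in sham and −1.03, −1.07 and −0.52 in ICH, with ICH 3 nearest the sham arrays, as for Scn3a. The difference was −0.52 ± 0.18 (adjusted p = 0.310), and its dimmer second probe differed by −0.22 ± 0.17. With spike-in centring the difference was −0.091, and the unadjusted p was no longer under 0.05. Cacnb1 also did not overlap, at 0.98, 0.68 and 0.55 in sham and 0.34, 0.45 and 0.51 in ICH. Its difference was −0.31 ± 0.16 (adjusted p = 0.400), turned to 0.13 with spike-in centring, and was 0.15 ± 0.16 on its second probe. Cacnb2, a beta subunit of the heart and brain, read −4.50, −3.81 and −4.00 in sham and −3.39, −4.10 and −3.12 in ICH, a difference of 0.56 ± 0.31 (adjusted p = 0.420). ICH 2 lay among its sham arrays. Cacnb3 differed by −0.23 ± 0.18, and by 0.20 with spike-in centring.

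The gamma genes held the channel gene with the smallest p and the only one whose ICH values all lay above sham. Cacng4, a TARP gene, read −3.56, −3.55 and −3.93 in sham and −4.46, −5.00 and −4.22 in ICH, with a difference of −0.88 ± 0.24, a 1.84-fold lower mean (adjusted p = 0.301), and −0.45 with spike-in centring. Cacng8, a TARP gene of forebrain and hippocampal synapses, read −1.20, −2.06 and −1.83 in sham and −1.14, −0.71 and −1.04 in ICH, with a difference of 0.73 ± 0.26, a 1.66-fold higher mean (adjusted p = 0.311), and 1.17 with spike-in centring. Sham 1 came within 0.1 log2 units of ICH 1, the lowest ICH array. These TARP genes thus had means on opposite sides, under each centring tried.

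Within each array Cacng8 minus Cacng4 was 0.38, −0.49 and 0.12 in sham and 1.34, 2.31 and 1.20 in ICH. The gap differed by 1.62. This pair was chosen after the values were seen, with Cacng8 above sham and Cacng4 below sham on every ICH array. The separation of the gap was therefore fixed by the choice, and it was not tested. Cacng5 also lay lower on all ICH arrays, at −5.06, −5.37 and −5.30 in sham and −5.46, −7.28 and −5.39 in ICH. Its difference of −0.80 ± 0.52 (adjusted p = 0.476) rests mainly on ICH 2, where its probe was not well above background; without that array it was −0.18. Cacng2, or stargazin, the TARP whose loss causes absence seizures and ataxia in mice, differed by −0.11 ± 0.24, Cacng3 by −0.21 ± 0.23 and Cacng7 by −0.13 ± 0.22, and each turned to between 0.22 and 0.32 with spike-in centring. The muscle-type gamma gene Cacng1 read −4.53, −4.11 and −5.11 in sham and −4.67, −5.12 and −5.38 in ICH, a difference of −0.47 ± 0.31, and the other muscle-type gene, Cacng6, differed by −0.19 ± 0.24 and by 0.25 with spike-in centring. Cacng1, Cacng4 and Cacng5 are direct neighbours in the gene order and were all lower in ICH, while Cacng8 lies between Cacng6 and Cacng7.

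**Figure D2:**
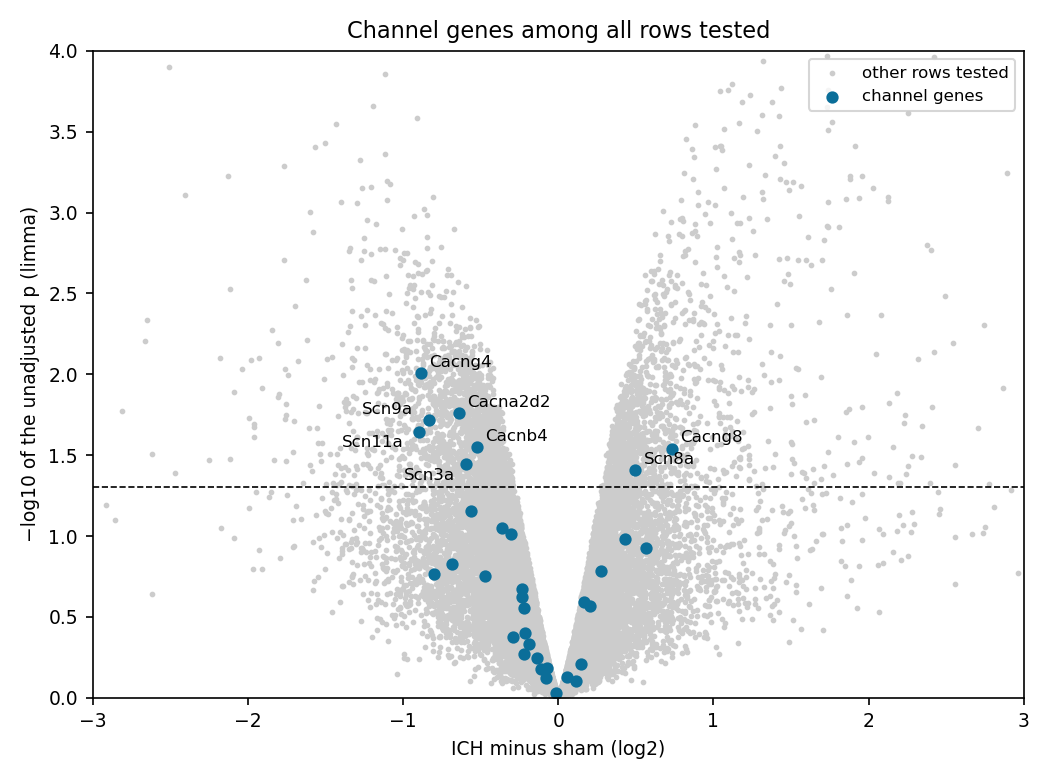
Difference between ICH and sham means on the log2 scale (horizontal) against −log10 of limma's unadjusted p (vertical) for 34 channel genes, coloured, and the rows of other genes and probes, grey; the dashed line is an unadjusted p of 0.05 and 42 rows outside the axes are not drawn. Of the 8 channel genes drawn above the line, 6 lie left of 0 and Scn8a and Cacng8 lie right of it, inside the cloud of the other rows, and none passes after adjustment.

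In all, 10 channel genes had 2 probes. In 9 of them both probes passed the filter, and the probes had the same sign in 6 and opposite signs in 3 (Cacna1b, Cacna1c and Cacnb1). For these 3 genes a direction depends on the probe read. The spread within the ICH group was wider than within sham for 24 of 36 channel genes, beside 79.7% of all rows. The median SD over the channel genes was 0.22 in sham and 0.35 in ICH. The ICH array farthest from the sham mean was ICH 2 for 20 channel genes and ICH 1 and ICH 3 for 8 each, beside 56.2%, 29.2% and 14.6% of all rows.

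Genes whose products bind or regulate these channels were taken as a list of 41, of which 33 were tested. Of these, 18 had a higher mean in ICH and 15 a lower one, with a median difference of 0.022, and 0 passed the adjusted p of 0.05 in limma. Below an unadjusted p of 0.05 stood 8 genes of the 33 (beside 14.7% of all rows), 2 with a higher mean (beside 6.16%) and 6 with a lower one (beside 8.56%). Crmp1, a collapsin response mediator, differed by 0.56 ± 0.20, and its relative Dpysl2, which binds the N-type calcium channel, by −0.49 ± 0.16. Calm3, a calmodulin gene whose product is the calcium sensor bound to both kinds of pore, differed by −0.35 ± 0.14. Gem, an inhibitor of calcium channels, differed by −0.76 ± 0.26. Stx1a, a syntaxin of the release machinery that binds presynaptic calcium channels, differed by −0.65 ± 0.26. Akap5, which anchors kinases at L-type channels, differed by −0.88 ± 0.35, but its groups overlapped, with sham 3 at −2.519 and ICH 3 at −2.495. Spike-in centring, which moved the median of all rows from −0.039 to 0.40, shifts every regulator upward by the same amount. That shift is larger than the Calm3 difference, so the Calm3 direction and the split of 18 and 15 are those of the centring used here. The differences of Dpysl2, Gem, Stx1a and Akap5 are larger than the shift.

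Lists of cell type markers were read on the same scale as the channel genes. Rbfox3, Tcf7l2 and Mylpf had no probe matched, and the cortical marker Tbr1 did not pass the filter. Neuron markers were present on every array: 7 of 8 were tested, their summed level (in units of the 75th percentile signal of the array) was 23.9 to 25.8 in sham and 22.1 to 26.2 in ICH, and their median difference was −0.13. All 8 striatal projection neuron markers had a lower mean in ICH (median −1.13, summed level 12.5 to 25.2 in sham and 7.70 to 11.8 in ICH), and all 7 cortical markers tested had a higher one (median 1.02, 4.46 to 7.19 and 8.72 to 9.54). All 7 interneuron markers (median −0.30, 13.2 to 16.01 and 10.1 to 12.1) and all 6 oligodendrocyte markers (median −0.30, 26.1 to 30.1 and 16.9 to 26.9) had a lower mean in ICH as centred here. Thalamic markers were low in sham 1 and ICH 2 (median deviation −1.04 and −1.08), and their summed level was 4.64 to 7.98 in sham and 4.74 to 8.05 in ICH. Of the 7 myeloid markers 6 were higher in their mean, with a median deviation of 1.50, 2.47 and −0.54 in ICH 1 to 3 and a summed level of 5.12 to 5.76 in sham and 4.36 to 9.59 in ICH. Skeletal muscle markers differed by a median of 0.022, with a summed level of 0.57 to 0.65 in sham and 0.68 to 0.77 in ICH. Astrocyte, endothelial and oligodendrocyte precursor markers had medians of −0.35, −0.44 and −0.094. The part of these markers in the channel gene differences was not tested, and the brain region taken and the hemorrhage cannot be told apart as sources of the striatal and cortical differences.

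**Figure D3:**
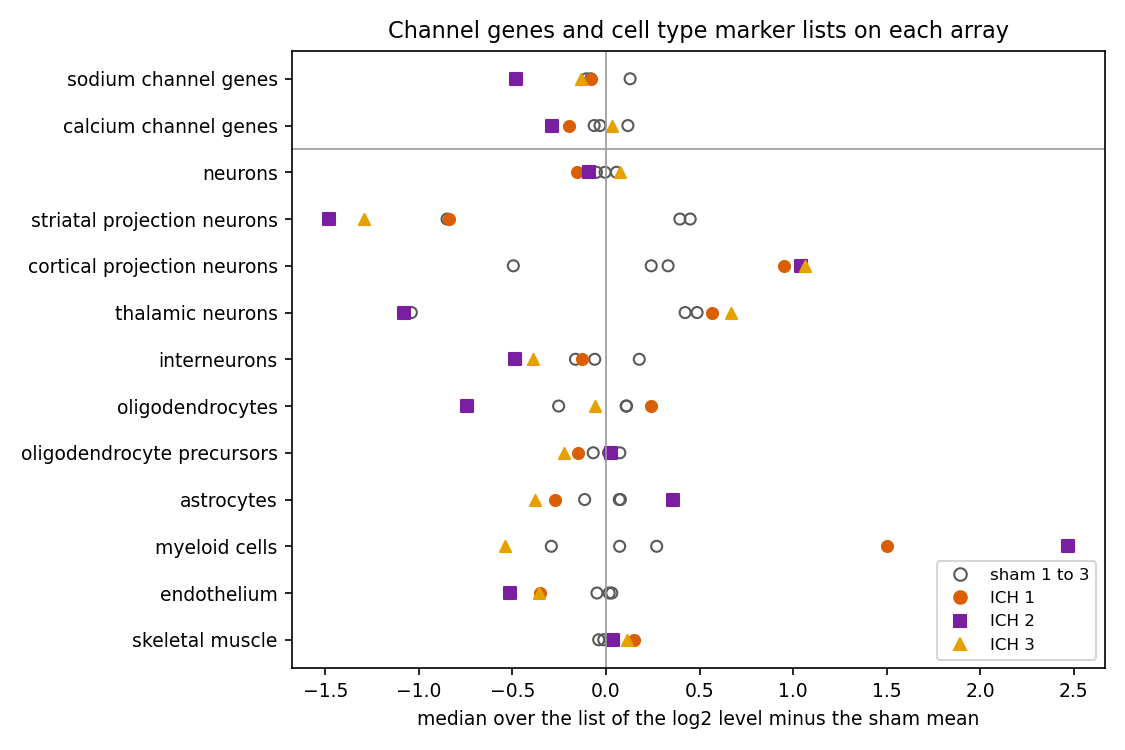
Median over each list of the log2 level minus the sham mean, one symbol per array, for the sodium and calcium channel genes (top) and the cell type marker lists. The channel lists stay between −0.48 and 0.13, while the striatal list runs from −1.48 to 0.45, with sham 3 beside ICH 1, and the myeloid list reaches 2.47 in ICH 2.

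All arrays shared 1 slide and 1 scan. By the position codes in the names of the scan files, which no label or header explains, the slide's first row held the 3 sham arrays and ICH 1 while its second row held ICH 2 and ICH 3. A fit with the row as a block takes the difference from ICH 1 alone. It gave −0.79 for Cacng4, −1.41 for Scn9a and 0.18 for Scn8a. In that fit Scn3a differed by −0.85, Cacnb4 by −0.68, Cacnb3 by −0.54 and Cacng3 by −0.63, all wider than without the block. Scn11a differed by −0.69, Cacna2d2 by −0.54 and Cacng8 by 0.56, each narrower than without it. As the difference rests on 1 ICH array, no count of genes is given for that fit. With no block, 5 channel genes had an unadjusted p under 0.05 without sham 1, beside 683 higher and 663 lower of all rows. The count was also 5 without sham 2, beside 769 higher and 1243 lower. Without the block, Cacng4 had an unadjusted p under 0.05 with each of the 6 arrays left out in turn, Scn9a, Scn11a and Cacna2d2 in 4 of the 6, Cacng8 and Scn8a in 2, and Scn3a and Cacnb4 in 1.

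**Figure D4:**
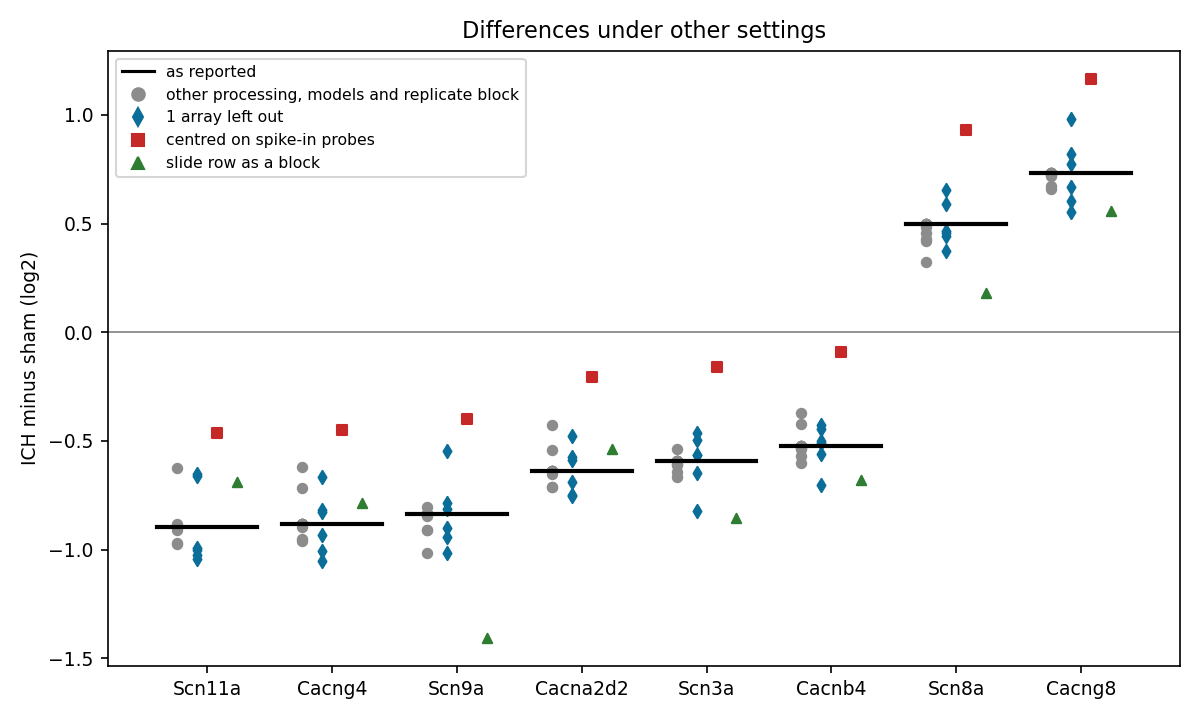
Difference between ICH and sham on the log2 scale for 8 channel genes at an unadjusted p under 0.05, as reported (bar) and under 20 other settings (symbols). The sign of all 8 held under each setting drawn. Settings that change only filters, the variance model or the replicate block repeat the bar. Spike-in centring (squares) moved every gene upward, to −0.091 for Cacnb4 and 1.17 for Cacng8.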

How the data were processed

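Per the file headers, the deposited intensity of each spot on these single-colour (Cy3) rat arrays came from Agilent Feature Extraction 11.5.1.1, with the background subtracted on each array; the submitters' processing notes name version 10.7. Per the file headers, the other deposited columns mark, spot by spot, saturation, non-uniformity and signal well above background. The deposited log2 values equalled, within 0.001 for 98.6% to 99.3% of probes, the mean log2 intensity of a probe minus the 75th percentile over probes, a step worked out from the values.

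Here control spots were left out, non-uniform spots (1 to 9 per array) counted as missing, each array's log2 intensity had its 75th percentile subtracted, and spots of a probe were averaged. Probes were kept if at least 0.5 of their spots were well above background on at least 3 of 6 arrays. Accessions were matched to RefSeq symbols (GRCr8, names and gene order only): 18355 probes had 1 symbol, 0 several and 12012 none. The brightest probe stood for each symbol. The ICH minus sham difference was fitted in limma 3.58.1 under R 4.3.3 (lmFit, eBayes, no covariate, 6.12 degrees of freedom, SE in log2 units), with Benjamini-Hochberg adjustment over 22179 rows.

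Values on every array are given for genes at an unadjusted p under 0.05, for those whose groups did not overlap and for the extremes of each role class; of the regulators, those at an unadjusted p under 0.05. Some genes that this rule would name are counted in totals but are not reported here. Members and lists were chosen with earlier results of these data known. Precision is limited by the number of arrays, 3 per group. Tested on simulated data (10 runs of 22179 rows, 200 changed genes per run), the ICH minus sham fit found 30.4% of 2-fold changes. It found 67.4% of 4-fold, 85.8% of 8-fold and 93.2% of 16-fold changes, and 5.03% of its calls were false. The simulated noise was independent between arrays and equally wide in both groups. In the real arrays the median SD over all rows was 0.14 in sham and 0.31 in ICH, so these rates need not hold there. The alternatives were normexp (offset 50) from median spot and background signals, quantile, median and spike-in centring, the deposited values, other filters and probe rules, array weights, another variance model, blocks and leaving out each array. Tables and figures used Python 3.11.15, numpy 2.4.6, pandas 2.3.3 and matplotlib 3.10.9.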

Additional observations from a re-analysis of the deposited data

How the results depend on the processing

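Over 20 alternatives, 0 channel genes passed an adjusted p of 0.05 in limma, and the channel genes' lowest adjusted p was 0.105 (Scn3a without ICH 3). Of 719 gene values under alternatives, 679 kept their sign and 40 did not. In every alternative that gave a value, 17 genes kept their sign. Other filters, keeping non-uniform spots, the other variance model, the replicate block and each probe as its own row left the differences as they were. The signs kept under those settings repeat the reported ones. The count at an unadjusted p under 0.05, 9 as reported, was 5 to 10 with 1 array left out. The counts over all rows moved too, from 683 higher and 663 lower without sham 1 to 2135 higher and 2553 lower without ICH 3. The median difference, −0.22 as reported, was 0.22 with spike-in centring and −0.29 to −0.14 with 1 array left out. The labels do not say that replicate numbers pair the samples. The deviations of same-numbered arrays correlated at −0.19, −0.008 and 0.070, which cannot settle it with 3 arrays per group. The replicate block gave 7 genes at an unadjusted p under 0.05, 0 higher and 7 lower, beside 918 higher and 1491 lower of all rows. With spike-in centring, which moved the median of all rows from −0.039 to 0.40, the sign turned for Cacna1a (0.36), Cacna1b (0.36), Cacna1e (0.14), Cacna1g (0.21), Cacna1i (0.20), Cacna2d1 (0.42), Cacnb1 (0.13), Cacnb3 (0.20), Cacng2 (0.32), Cacng3 (0.22), Cacng6 (0.25), Cacng7 (0.30), Scn1a (0.071) and Scn4a (0.21). It turned with quantile normalization for Cacna1b (0), Cacna2d1 (0.12) and Cacng2 (0.059), with median centring for Cacna1h (−0.019), with the mean of probes for Cacna1b (0.094) and Cacna1c (−0.12), and with array weights for Cacng7 (0.049) and Scn10a (−0.074). The slide row as a block turned Cacna1h (−0.054), Cacng2 (0.005), Scn10a (−0.081), Scn3b (−0.026) and Scn4a (0.021). With 1 array left out, the values ran from −0.28 to 0.036 for Cacna1a, −0.18 to 0.008 for Cacna1b, −0.47 to 0.10 for Cacna1g, −0.063 to 0.18 for Cacna1h, −0.13 to 0.096 for Cacna2d1, −0.30 to 0.13 for Cacng2, −0.30 to 0.091 for Cacng7, −0.26 to 0.40 for Scn10a and −0.056 to 0.47 for Scn2b. The cause of these turns was not tested. The filter on all 6 arrays left Cacng5 without a value. Signals near background limit the probes of Cacna1f and Cacna2d4.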
